A study of Mus musculus with 20 samples.

Results

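The genes described are the mouse homeobox genes that the array names under Hoxa, Hoxb, Hoxc, Hoxd, Pbx, Meox, Tgif, Msx, Dlx, Lhx, Prrx, Pitx or Nkx, and those from Six2 to Six6. They were taken by symbol from the array's probe-to-gene table, from probe sets that carry a single symbol. The rule found 87 probe sets of 72 genes among 8251 genes named on the array. Of these, 59 probe sets of 49 genes had a signal above the floor on at least 5 of 20 arrays and were tested, and the other 28 were not. Symbols under these stems include 3 genes for non-coding RNAs, Hoxa11os, Dlx1as and Dlx6os2, with 5 probe sets. The study measured total RNA of sorted cells of adult C57BL/10SnJ mice, an inbred strain, with no treatment named. Cells of the side population (SP) and of the main population (MP) were sorted from skeletal muscle and from bone marrow, and each of the 4 groups has 5 arrays. SP cells are commonly set apart from MP cells in flow cytometry by their export of a DNA dye, and the bone marrow SP is known to be rich in hematopoietic stem cells. The labels number the samples but do not say if those of a group are separate animals, separate sorts or pools, so p-values measure the spread between these samples only, which may be technical.

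Homeobox genes encode transcription factors that bind DNA through a homeodomain. The Hox genes lie in 4 clusters, and their order within a cluster follows the order in which they are used along the body axis of the embryo, so adult mesenchymal cells often keep the Hox set of the place they came from. In blood formation, Hoxa and Hoxb genes are known to be active in stem and progenitor cells and to be turned down as these cells mature. Pbx, Meis and Tgif proteins belong to the TALE class of homeodomain proteins, and Pbx and Meis bind DNA together with Hox proteins. Meox, Msx, Six2, Six4, Pitx and Prrx genes act in somites, limb mesenchyme and muscle precursors.

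Start regions are shown for 4 genes picked, with their values known, as examples of the patterns described below, each running from 250 bases before to 50 bases after the annotated start (300 bases) and read from RefSeq's table for GRCm38.p6, whose strain is not that of these mice. Meox2 separated the tissues by the widest margin and lies on the plus strand at chr12:37108290-37108589, Hoxa5 (chr6:52204538-52204837) and Hoxa7 (chr6:52218524-52218823) are Hoxa cluster genes on the minus strand that were higher in marrow SP than in marrow MP cells, and Six2, on the minus strand at chr17:85688205-85688504, took opposite directions in the tissues. Capitals mark GGGCGG, the GC box, and TATAAA, the TATA box, on either strand.
Meox2: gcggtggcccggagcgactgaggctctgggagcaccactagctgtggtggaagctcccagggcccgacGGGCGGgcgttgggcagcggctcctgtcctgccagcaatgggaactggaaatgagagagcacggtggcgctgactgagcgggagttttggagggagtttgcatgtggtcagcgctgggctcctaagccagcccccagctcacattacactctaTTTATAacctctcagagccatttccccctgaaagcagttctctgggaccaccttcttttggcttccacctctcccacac
Hoxa5: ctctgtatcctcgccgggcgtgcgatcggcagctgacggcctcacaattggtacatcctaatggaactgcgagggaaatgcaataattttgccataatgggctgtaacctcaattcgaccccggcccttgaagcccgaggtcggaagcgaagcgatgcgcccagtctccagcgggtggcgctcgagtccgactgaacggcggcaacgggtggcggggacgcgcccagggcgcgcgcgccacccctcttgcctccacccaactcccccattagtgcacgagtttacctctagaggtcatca
Hoxa7: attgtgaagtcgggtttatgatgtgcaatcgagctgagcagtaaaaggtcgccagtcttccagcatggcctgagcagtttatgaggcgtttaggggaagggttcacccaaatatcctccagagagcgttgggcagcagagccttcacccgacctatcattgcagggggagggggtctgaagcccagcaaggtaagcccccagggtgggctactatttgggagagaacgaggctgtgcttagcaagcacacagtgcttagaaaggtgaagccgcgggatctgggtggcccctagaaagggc
Six2: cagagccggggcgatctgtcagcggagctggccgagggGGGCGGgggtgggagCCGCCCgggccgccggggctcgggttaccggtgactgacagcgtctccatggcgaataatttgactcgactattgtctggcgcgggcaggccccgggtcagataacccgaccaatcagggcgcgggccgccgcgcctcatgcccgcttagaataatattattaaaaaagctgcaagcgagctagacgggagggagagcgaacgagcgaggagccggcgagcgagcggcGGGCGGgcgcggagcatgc
The Meox2 window held 1 GGGCGG and 1 TATAAA, read on the other strand, and the Six2 window held 3 GGGCGG. The Hoxa5 and Hoxa7 windows held neither. TATAAA was present in 13.6% and GGGCGG in 35.7% of the 32851 windows of this length in the table, against 13.1% and 60.7% of the 61 windows of the genes described, which cover 51 of the 72 genes. TAATTA, the homeodomain core, was in 5.29% of all windows and 6.56% of these. TGATNNAT, a site of Pbx with Hox proteins, was in 8.85% and 9.84%, and none of the windows shown held either. The windows of these genes had a median of 17 CpG dinucleotides against 7 over all windows. These matches describe letters in the windows and were not tested against the signals.

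Values are given as quantile-normalized signal, on a linear scale with no unit, in the order of the replicate numbers 1 to 5. The floor is the 25th percentile of all values, a signal of 105, and a value under it says only that the probe set was not above background there. Signals of different probe sets are not comparable with each other, so levels are compared only within a probe set. Differences are log2 differences of floored values ± SE over 5 against 5 arrays, from one fit of all 20 arrays, called at an adjusted p under 0.05. Array medians ran from 318 to 612 before normalization. Marker genes followed the labels of tissue: 8 of 8 general leukocyte genes were lower in muscle than in marrow in both populations, 9 of 9 fibroblast genes were higher in muscle in both, and so were 9 of 10 endothelial genes. Of 8 satellite cell and myoblast genes, Myf5, Calcr and Fgfr4 were at the floor on all 10 marrow arrays and Cdh15 on 9 of them, while Myod1, Myog, Sdc4 and Itga7 were above it on all 10, and all 8 were above it on 5 of 5 muscle MP arrays. In marrow SP cells 11 of 14 stem and progenitor genes were higher than in marrow MP cells. The muscle SP arrays were not alike: the summed signal of 8 T and NK cell genes was 17418 to 52941 on arrays 1, 2 and 3 and 4266 to 4553 on arrays 4 and 5, and that of 7 pericyte and smooth muscle genes was 29451 to 36029 and 69211 to 72938. Lists of general leukocyte, endothelial, fibroblast and muscle fibre genes were also higher on arrays 1, 2 and 3. So were those of Schwann cell, erythroid, and granulocyte and monocyte genes, the last at 9155 to 35866 against 884 to 1072. Stem and progenitor, satellite cell and B lineage lists overlapped. Calls that were lost when either set of arrays was left out are given with the value without it, an alternative chosen after seeing the data. A sign of RNA length, the 3′ over the 5′ GAPDH control probe set on the log2 scale, averaged 3.83 ± 0.61 (SD, n = 5) in muscle SP and 2.66 ± 0.62 in muscle MP, 3.72 ± 0.60 in marrow SP and 2.67 ± 0.72 in marrow MP, so it moved with SP against MP in both tissues, and its part in those comparisons was not tested beyond the fits with the ratio as a covariate and without the 3 arrays of highest ratio, quoted beside single results.

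**Figure D1:**
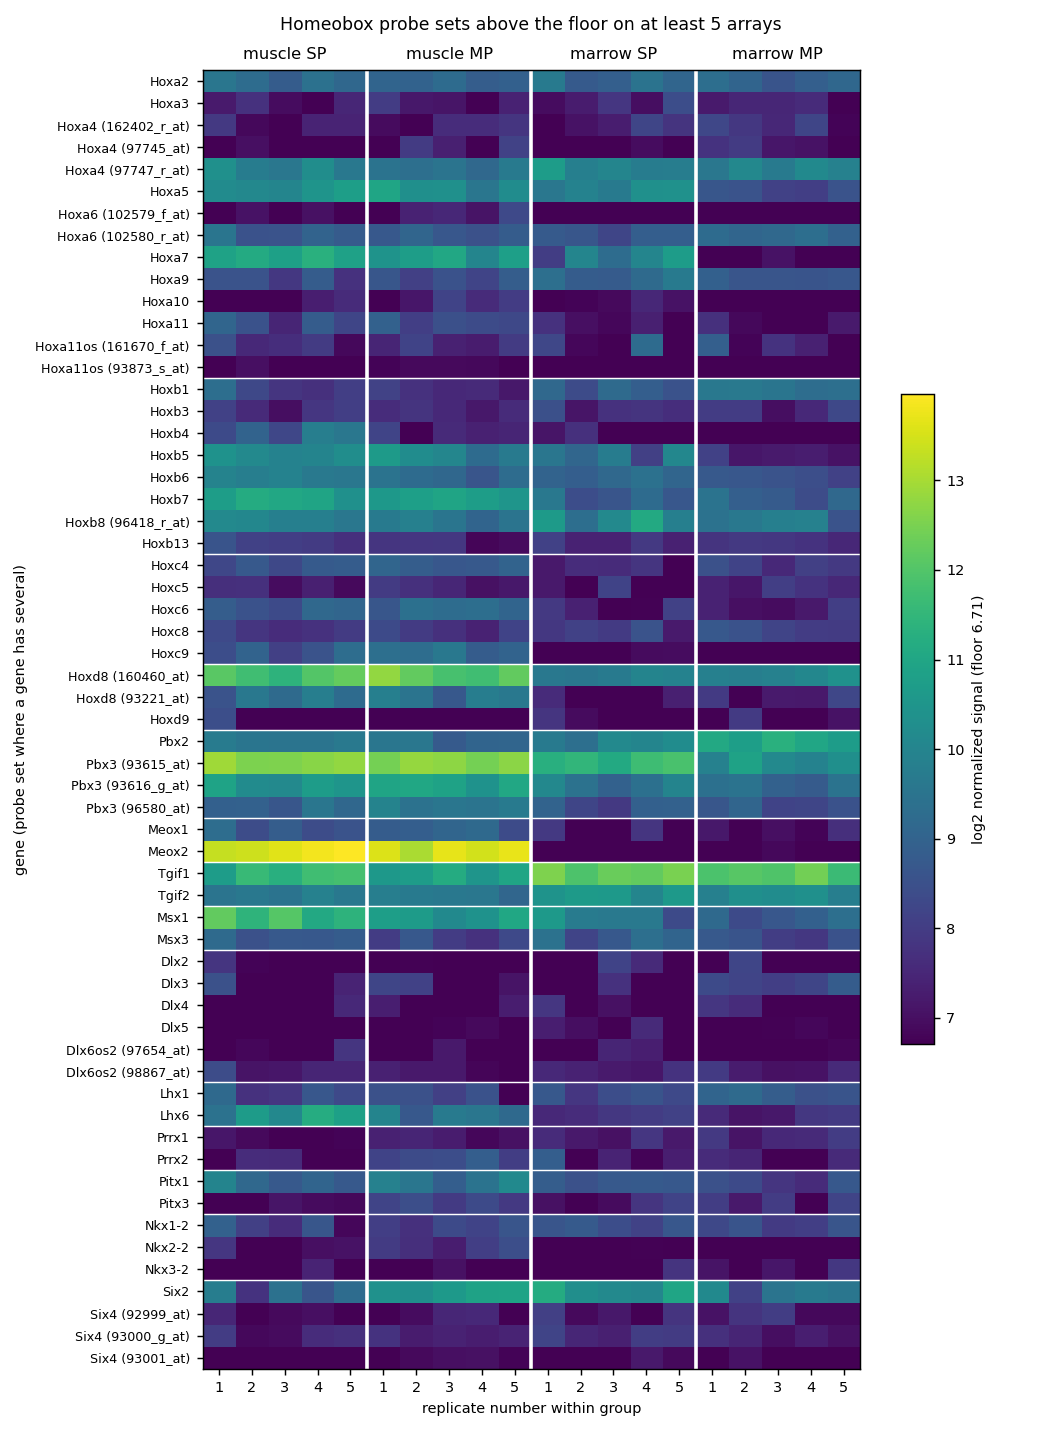
Log2 normalized signal of the 59 homeobox probe sets above the floor on at least 5 arrays, with the 20 arrays in columns by group and replicate number and the genes in rows by family. Meox2, Hoxa7, Hoxb7 and a Hoxd8 probe set are brighter on the muscle arrays than on the marrow MP arrays, while many rows lie near the floor of 6.71 in every group, and colours compare arrays within a row, not rows.

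The first question was whether cells of muscle and of bone marrow use different homeobox genes. Most of the differences ran toward muscle. Among MP cells 25 of the 59 tested probe sets (22 genes) were higher in muscle and 6 were lower, where 20.9% and 25.6% of all 10310 tested probe sets were higher and lower. Among SP cells 17 (15 genes) were higher in muscle and 5 were lower, against 17.1% and 21.2% of all. Hox probe sets, 30 of the 59 tested, made up 14 of the 25 and 11 of the 17. In both populations 17 probe sets were higher in muscle, among them Meox1, Meox2, Msx1, Lhx6 and Pbx3. The share of all tested probe sets higher in muscle in both populations was not counted. The median log2 difference of the 59 was 0.11 in MP and 0.06 in SP cells, beside -0.14 and -0.11 over all tested probe sets. Of all 87, including those near the floor, 24 were higher and 4 lower in muscle MP, and 16 higher and 6 lower in muscle SP, when no filter was used, where 37.8% and 31.0% of all probe sets were called. The arrays of the groups did not overlap for 28 of the 59 in MP and 18 in SP cells, beside 40.6% and 23.9% of all tested probe sets. In either direction 46.5% of all were called in MP and 38.3% in SP cells. In bulk samples like these, fewer expressing cells and less RNA per cell cannot be told apart.

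**Figure D2:**
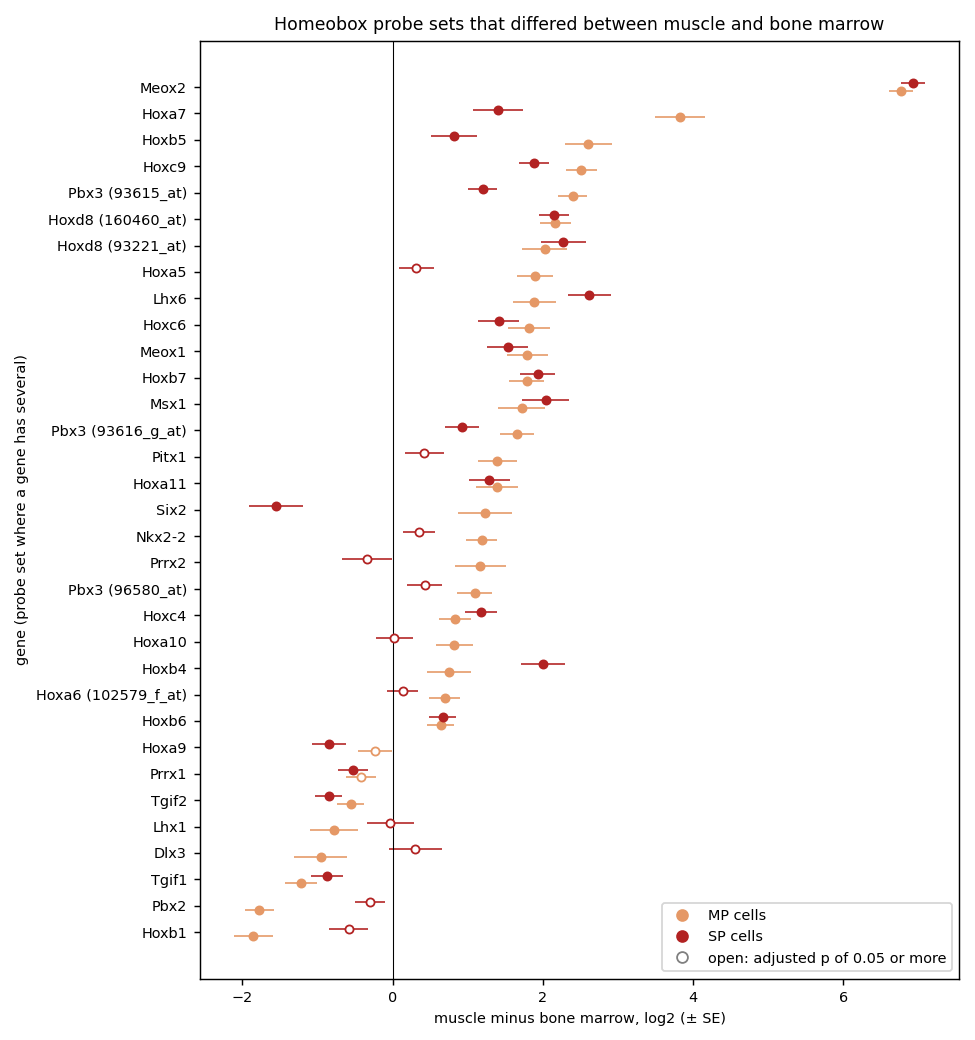
Log2 difference of muscle minus bone marrow (± SE, 5 against 5 arrays) for each homeobox probe set called in MP cells (light) or SP cells (dark), with open points at an adjusted p of 0.05 or more. Meox2 stands at 6.76 in MP and 6.92 in SP cells, and Six2 is the gene called in opposite directions, 1.23 in MP and -1.55 in SP cells.

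The widest separation was that of Meox2, a homeobox gene of the somites that is also expressed in vascular cells and limb muscle. Meox2 gave 10341, 10812, 12747, 14618 and 15937 on the muscle SP arrays, 12336, 8362, 13286, 11389 and 13514 on the muscle MP arrays, 59.8, 81.2, 5.97, 14.1 and 40.1 on the marrow SP arrays and 4.67, 10.7, 116, 44.4 and 7.33 on the marrow MP arrays. All 10 muscle arrays were at 8362 or more, while 9 of 10 marrow arrays were under the floor and marrow MP array 3 was just over it. The muscle level was at least 121-fold that of marrow in SP cells (log2 6.92 ± 0.16, adjusted p = 1.1e-18), a bound set by the floor, and 109-fold in MP cells (log2 6.76 ± 0.16, adjusted p = 1.16e-18). With the floor at the 40th and the 10th percentile the log2 difference was 5.64 and 8.13 in SP and 5.51 and 8.05 in MP cells. In muscle, SP and MP cells overlapped (log2 SP minus MP 0.13 ± 0.16, adjusted p = 0.693). Summed endothelial marker signal ran from 114176 to 156776 in muscle SP and 95781 to 124133 in muscle MP cells against 4782 to 8116 and 2708 to 2929 in marrow SP and MP cells, and its part in the Meox2 result was not tested. Meox1, the paralog that acts with Meox2 in somites, was also higher in muscle. Meox1 gave 629, 339, 465, 340.1 and 378 on the muscle SP arrays, 456, 466, 539, 585 and 329.6 on the muscle MP arrays, 242, 47.6, 46.0, 227 and 67.0 on the marrow SP arrays and 144, 73.8, 129, 110.3 and 207 on the marrow MP arrays. All muscle arrays exceeded all marrow arrays, by 3.46-fold in MP cells (log2 difference 1.79 ± 0.27, adjusted p = 7.91e-06) and 2.89-fold in SP cells (log2 difference 1.53 ± 0.27, adjusted p = 7.78e-05). With the floor at the 40th and the 10th percentile these log2 differences were 0.87 and 1.89 and 0.71 and 2.13.

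**Figure D3:**
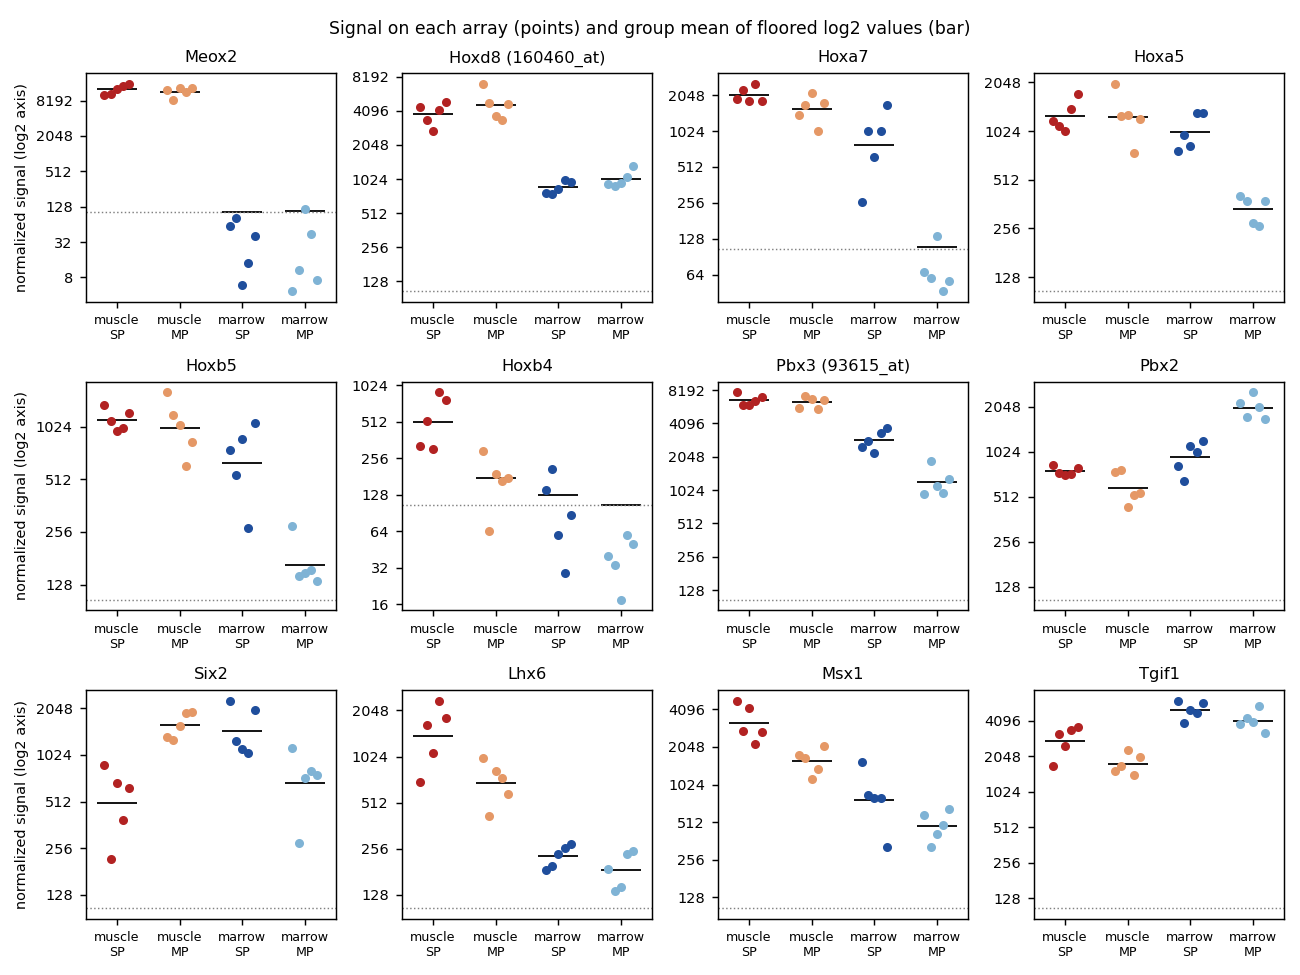
Normalized signal on a log2 axis for 12 homeobox probe sets, with a point per array, the bar at the group mean of floored log2 values and the floor as a dotted line. Meox2 and Hoxd8 separate muscle from marrow, Hoxa7, Hoxa5 and Hoxb5 are lowest in marrow MP cells, and Six2 is lowest in muscle SP and marrow MP cells.

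Among the Hoxa genes, 5 of 14 tested probe sets were higher in muscle MP than in marrow MP cells, beside 20.9% of all tested, and 2 were higher in muscle SP than in marrow SP cells, beside 17.1%. Hoxa7, a central gene of the cluster, had the widest range. Hoxa7 gave 1902, 2262, 1822, 2562 and 1848 on the muscle SP arrays, 1390.4, 1706, 2126, 1032 and 1770.0 on the muscle MP arrays, 260.3, 1029, 617, 1030.0 and 1699.7 on the marrow SP arrays and 67.0, 60.4, 135, 46.5 and 56.1 on the marrow MP arrays. Muscle arrays were all at 1032 or more, marrow SP arrays spread from 260.3 to 1699.7, and 4 of 5 marrow MP arrays were under the floor. The muscle excess was 14.1-fold in MP cells (log2 difference 3.82 ± 0.33, adjusted p = 1.55e-09) and 2.64-fold in SP cells (log2 difference 1.40 ± 0.33, adjusted p = 0.00155), and the former was 2.61 and 4.53 on the log2 scale with the floor at the 40th and the 10th percentile. Hoxa5, which patterns the neck and thorax of the embryo, was called in MP cells. Hoxa5 gave 1181, 1102, 1022, 1402 and 1739 on the muscle SP arrays, 2012, 1273, 1293, 754 and 1218 on the muscle MP arrays, 771, 969, 829, 1315 and 1328 on the marrow SP arrays and 405, 379, 278, 264 and 377 on the marrow MP arrays. Marrow MP arrays were lowest and did not overlap the others (log2 difference 1.90 ± 0.24, adjusted p = 5.05e-07, 3.72-fold), while the SP groups overlapped (log2 difference 0.32 ± 0.24, adjusted p = 0.318). Hoxa11, a gene of the posterior limb field, was higher in muscle in MP (log2 difference 1.38 ± 0.28, adjusted p = 0.000267) and in SP cells (log2 difference 1.29 ± 0.28, adjusted p = 0.000709), at 176 to 543 and 268 to 500.0 in muscle SP and MP against 72.3 to 213 and 26.7 to 211 in marrow SP and MP cells. Its log2 difference in MP cells was 0.44 with the floor at the 40th percentile. That in SP cells was 0.53 with the floor at the 40th percentile.

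Hoxa9 and Hoxa10 are known from blood stem and progenitor cells and from leukemia. Hoxa9 gave 381, 380.0, 237, 455 and 216 on the muscle SP arrays, 404, 272, 369, 291 and 462 on the muscle MP arrays, 661, 455, 441, 599 and 807 on the marrow SP arrays and 492, 396, 393, 390.2 and 412 on the marrow MP arrays. Hoxa9 was the Hox gene called lower in muscle SP than in marrow SP cells (log2 difference -0.85 ± 0.22, adjusted p = 0.00387, 1.80-fold), and muscle SP array 4 (455) lay within the marrow SP range. Hoxa10 gave 19.5, 70.3, 33.6, 161 and 194 on the muscle SP arrays, 106, 142, 286, 196 and 254 on the muscle MP arrays, 60.8, 109, 119, 183 and 133 on the marrow SP arrays and 7.25, 35.1, 14.2, 9.95 and 9.80 on the marrow MP arrays. Hoxa10 was under the floor on all marrow MP arrays and above it on all muscle MP arrays, at least 1.76-fold (log2 difference 0.82 ± 0.25, adjusted p = 0.00892), and the log2 bound was 2.52 with the floor at the 10th percentile. One Hoxa6 probe set, 102579_f_at, was likewise under the floor on all 10 marrow arrays and at 73.8 to 315 on the muscle MP arrays, 4 of which were above the floor, at least 1.62-fold (log2 difference 0.69 ± 0.21, adjusted p = 0.00783). Its log2 bound was 2.33 with that floor, and with the floor at the 40th percentile neither of these probe sets was tested. The second Hoxa6 probe set, 102580_r_at, was not called (log2 difference -0.39 ± 0.19, adjusted p = 0.0993).

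**Figure D4:**
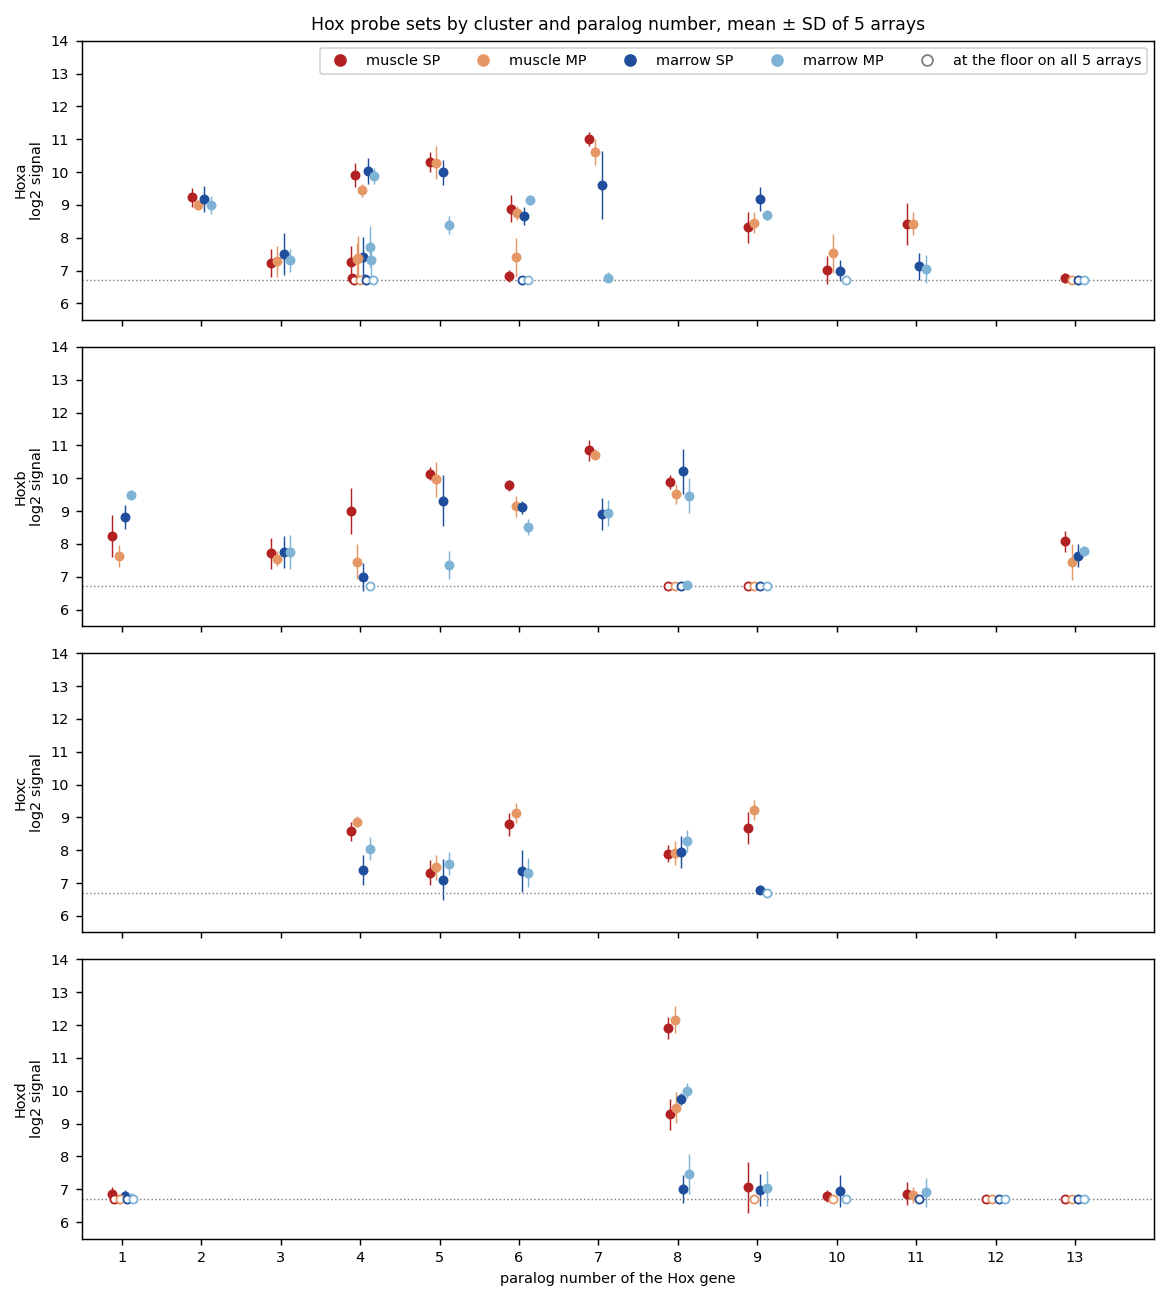
Mean log2 normalized signal ± SD of 5 arrays for each Hox probe set by cluster (panels) and paralog number (x axis) in the 4 groups, open where all 5 arrays were under the floor (dotted line). Muscle groups lie above marrow MP cells at paralogs 5, 7 and 11 of Hoxa, 4 to 7 of Hoxb, 4, 6 and 9 of Hoxc and 8 of Hoxd. Muscle MP cells lie above them also for Hoxa10 and the Hoxa6 probe set 102579_f_at. Heights are not comparable between genes.

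Of 8 tested Hoxb probe sets, Hoxb4, Hoxb5, Hoxb6 and Hoxb7 were higher in muscle in both populations, where 20.9% of all tested were higher in MP and 17.1% in SP cells. Hoxb7 lies just beyond Hoxb6 in the cluster. Hoxb7 gave 1720.5, 2296, 2111, 1954 and 1305 on the muscle SP arrays, 1540.1, 1799, 1963, 1731 and 1453 on the muscle MP arrays, 781, 343, 397, 607 and 410.0 on the marrow SP arrays and 706, 478, 440.4, 338 and 567 on the marrow MP arrays. The muscle arrays lay above all marrow arrays, by 3.44-fold in MP cells (log2 difference 1.78 ± 0.23, adjusted p = 9.43e-07) and 3.81-fold in SP cells (log2 difference 1.93 ± 0.23, adjusted p = 4.2e-07), and SP and MP cells overlapped in each tissue. Hoxb5 is known as a marker of long-term hematopoietic stem cells. Hoxb5 gave 1357, 1107, 967, 1011 and 1226 on the muscle SP arrays, 1614, 1202, 1050.5, 609 and 837 on the muscle MP arrays, 758, 545, 872, 270.4 and 1079.7 on the marrow SP arrays and 278, 143, 149.9, 156 and 135 on the marrow MP arrays. The difference between tissues was 6.08-fold in MP cells (log2 difference 2.60 ± 0.31, adjusted p = 2.57e-07) and 1.76-fold in SP cells (log2 difference 0.82 ± 0.31, adjusted p = 0.0403), where marrow SP array 5 lay within the muscle SP range. The call for Hoxb5 in SP cells was lost when one of the following arrays was left out: muscle SP 1, 2, 4 and 5, or marrow SP 2 and 4 (adjusted p 0.0522 to 0.146). It was also lost with no normalization between arrays, with the floor at the 10th percentile, with no filter, with array weights, in a fit of these groups alone, without the 3 arrays of highest GAPDH ratio, without muscle SP arrays 4 and 5 and without muscle SP arrays 1, 2 and 3 (adjusted p 0.0546 to 0.163). On the log2 scale the difference was 0.51 without marrow SP 4, 0.83 without muscle SP arrays 4 and 5 and 0.80 without muscle SP arrays 1, 2 and 3. Hoxb4 is known to expand blood stem cells when forced on. Hoxb4 gave 322, 516, 304, 896 and 771 on the muscle SP arrays, 295, 64.1, 190.1, 167 and 176 on the muscle MP arrays, 139, 208, 60.0, 29.0 and 87.3 on the marrow SP arrays and 40.4, 33.9, 17.4, 59.8 and 50.3 on the marrow MP arrays. Muscle SP arrays were all at 304 or more and marrow MP arrays all under the floor. In SP cells muscle exceeded marrow 4.02-fold (log2 difference 2.01 ± 0.29, adjusted p = 7.07e-06), and in MP cells at least 1.69-fold (log2 difference 0.75 ± 0.29, adjusted p = 0.0388). The call for Hoxb4 in MP cells was lost when one of the following arrays was left out: muscle MP 1, 3, 4 and 5, or marrow MP 1, 2, 3, 4 and 5 (adjusted p 0.0559 to 0.123). The same happened with no normalization between arrays, with median scaling, with the floor at the 40th percentile and with no filter (adjusted p 0.0602 to 0.896). With the floor at the 40th and the 10th percentile the log2 difference in SP cells was 1.00 and 2.57 and in MP cells 0.04 and 1.93. Hoxb6 was 1.56-fold higher in muscle MP (log2 difference 0.64 ± 0.18, adjusted p = 0.00486) and 1.59-fold in muscle SP cells (log2 difference 0.67 ± 0.18, adjusted p = 0.00439). The call for Hoxb6 in SP cells was lost with no normalization between arrays and without muscle SP arrays 1, 2 and 3 (adjusted p 0.0553 to 0.115). The log2 value was 0.50 without muscle SP arrays 1, 2 and 3.

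Hoxb1, a gene of the hindbrain and the anterior end of the cluster, ran the other way. Hoxb1 gave 643, 313, 229, 208 and 265 on the muscle SP arrays, 280.2, 214, 185, 191 and 145 on the muscle MP arrays, 569, 330.2, 590.1, 468 and 373 on the marrow SP arrays and 777, 800.3, 740.0, 629 and 652 on the marrow MP arrays. All muscle MP arrays were under all marrow MP arrays (3.61-fold, log2 difference -1.85 ± 0.26, adjusted p = 2.34e-06), and muscle SP and marrow SP arrays overlapped (log2 difference -0.59 ± 0.26, adjusted p = 0.0762). Hoxb3 did not pass in any comparison. Hoxb3 gave 277, 191, 126, 231 and 268 on the muscle SP arrays, 199, 224, 185, 145 and 196 on the muscle MP arrays, 356, 139, 214, 222 and 203 on the marrow SP arrays and 255, 256, 126, 186 and 311 on the marrow MP arrays. Its adjusted p was 0.568 between the MP groups and 0.928 between the SP groups, and the ranges of all 4 groups overlapped.

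Of the 5 Hoxc probe sets, Hoxc4, Hoxc6 and Hoxc9 were higher in muscle in both populations, beside 20.9% of all tested in MP and 17.1% in SP cells. Hoxc9 gave 342, 524, 269, 376 and 636 on the muscle SP arrays, 654, 636, 787, 452 and 517 on the muscle MP arrays, 71.8, 83.9, 78.7, 121 and 124 on the marrow SP arrays and 66.3, 7.20, 62.9, 58.4 and 52.8 on the marrow MP arrays. Hoxc9 was above the floor on all muscle arrays, on 2 marrow SP arrays and on no marrow MP array. Its muscle excess was at least 5.71-fold in MP cells (log2 difference 2.51 ± 0.20, adjusted p = 4.36e-10) and 3.67-fold in SP cells (log2 difference 1.88 ± 0.20, adjusted p = 7.85e-08), and on the log2 scale 1.23 and 3.51 and 0.68 and 2.13 with the floor at the 40th and the 10th percentile. Hoxc6 gave 457, 369, 322, 567 and 542 on the muscle SP arrays, 398, 675, 615, 645 and 526 on the muscle MP arrays, 241, 167, 46.2, 107 and 278 on the marrow SP arrays and 168, 129.8, 123, 146 and 265 on the marrow MP arrays. Every muscle array was above every marrow array for Hoxc6, which is active at the forelimb and thoracic level (log2 difference 1.81 ± 0.27, adjusted p = 8.31e-06 in MP and log2 difference 1.41 ± 0.27, adjusted p = 0.000236 in SP cells). The Hoxc6 difference in MP cells was 1.13 with the floor at the 40th percentile. The Hoxc6 difference in SP cells was 0.77 with the floor at the 40th percentile. Hoxc4 was 1.78-fold higher in muscle MP (log2 difference 0.83 ± 0.21, adjusted p = 0.00273) and 2.26-fold in muscle SP cells (log2 difference 1.18 ± 0.21, adjusted p = 0.000109). The latter was 0.58 with the floor at the 40th percentile. The Hoxc9 probe set carries the suffix f, for probes that can cross-hybridise within a gene family.

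Hoxd8 was the Hoxd gene with tested differences, and both of its probe sets gave the same call. Probe set 160460_at gave 4449, 3403, 2702, 4132 and 4876 on the muscle SP arrays, 7126, 4809.7, 3703, 3399 and 4749 on the muscle MP arrays, 778, 753, 838, 1009 and 973 on the marrow SP arrays and 929.8, 894, 947, 1073 and 1329.9 on the marrow MP arrays. Probe set 93221_at gave 383, 776, 595, 899 and 604 on the muscle SP arrays, 920.4, 726, 418, 887 and 777 on the muscle MP arrays, 195, 56.4, 38.0, 74.8 and 162 on the marrow SP arrays and 245, 83.6, 150.1, 149 and 303 on the marrow MP arrays. On both, every muscle array exceeded every marrow array. The log2 differences were 2.17 ± 0.20 and 2.02 ± 0.30 in MP cells (adjusted p = 7.09e-09 and 5.1e-06) and 2.15 ± 0.20 and 2.27 ± 0.30 in SP cells (adjusted p = 1.27e-08 and 1.39e-06), between 4.06-fold and 4.83-fold. The last of these log2 differences was 1.30 with the floor at the 40th percentile. Of the other Hoxd genes, Hoxd9 was tested and not called, and Hoxd1, Hoxd10, Hoxd11, Hoxd12 and Hoxd13 were above the floor on 0 to 4 of the 20 arrays and were not tested. Hoxa13 and Hoxb9 were also under the testing limit, so of the posterior genes from paralog 10 on only Hoxa10, Hoxa11 and Hoxb13 were tested on coding probe sets.

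Pbx3, a partner of Hox proteins on DNA, was higher in muscle, and its 3 probe sets differed in size. Probe set 93615_at gave 7841, 5963, 6004, 6487 and 7035 on the muscle SP arrays, 5602, 7239, 6835, 5566 and 6628 on the muscle MP arrays, 2516, 2859, 2207, 3367 and 3734 on the marrow SP arrays and 952, 1894, 1123, 973 and 1291 on the marrow MP arrays. The lowest muscle array was at 5566 and the highest marrow array at 3734. The tissue difference was 5.26-fold in MP (log2 difference 2.39 ± 0.19, adjusted p = 5.13e-10) and 2.30-fold in SP cells (log2 difference 1.20 ± 0.19, adjusted p = 2.57e-05). Probe set 93616_g_at gave 1.65 ± 0.23 in MP and 0.92 ± 0.23 in SP cells on the log2 scale, and probe set 96580_at gave 1.09 ± 0.23 and 0.43 ± 0.23, the last with an adjusted p of 0.157. Pbx2, a second Pbx cofactor, was lower in muscle MP cells. Pbx2 gave 841, 742, 722, 726 and 798 on the muscle SP arrays, 752, 770.0, 435, 525 and 542 on the muscle MP arrays, 822, 656, 1115, 1023 and 1210.1 on the marrow SP arrays and 2157, 1749.7, 2567, 2040.0 and 1687 on the marrow MP arrays. The marrow MP arrays were all at 1687 or more and the other 15 at 1210.1 or less, 3.42-fold in MP cells (log2 difference -1.77 ± 0.19, adjusted p = 7.93e-08), while the SP groups did not pass (log2 difference -0.30 ± 0.19, adjusted p = 0.242). The TALE repressors Tgif1 and Tgif2, which act on TGF-beta and retinoid signals, were lower in muscle in both populations. Tgif1 gave 1692, 3124, 2511, 3394 and 3628 on the muscle SP arrays, 1517, 1683, 2291, 1428 and 2018 on the muscle MP arrays, 6042, 3939, 5050.0, 4782 and 5825 on the marrow SP arrays and 3846, 4311, 3968, 5452 and 3229 on the marrow MP arrays. For Tgif1 all muscle arrays of a population were under all marrow arrays of it, with 3628 the highest muscle SP and 3939 the lowest marrow SP value (log2 difference -1.22 ± 0.21, adjusted p = 4.68e-05 in MP and log2 difference -0.87 ± 0.21, adjusted p = 0.00204 in SP cells). The Tgif1 call in SP cells was lost with median scaling and without muscle SP arrays 1, 2 and 3 (adjusted p 0.0573 to 0.0958). Its size on the log2 scale was -0.53 without muscle SP arrays 1, 2 and 3. Tgif2 ran at 707 to 951 and 551 to 906 in muscle SP and MP and 1034 to 1635 and 899 to 1313 in marrow SP and MP cells (log2 difference -0.56 ± 0.18, adjusted p = 0.0128 in MP and log2 difference -0.85 ± 0.18, adjusted p = 0.000507 in SP cells). The Tgif2 call in MP cells was lost with no normalization between arrays (adjusted p 0.0691).

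Msx1, which holds limb mesenchyme and myoblasts in an undifferentiated state, was higher in muscle in both populations. Msx1 gave 4799.6, 2735, 4208, 2164 and 2674 on the muscle SP arrays, 1760.2, 1655, 1143, 1358 and 2097 on the muscle MP arrays, 1553, 849, 803, 802 and 324 on the marrow SP arrays and 582, 322, 408, 489.8 and 655 on the marrow MP arrays. All muscle arrays were above the marrow arrays of the same population (log2 difference 1.72 ± 0.32, adjusted p = 9.6e-05, 3.29-fold in MP cells, and log2 difference 2.04 ± 0.32, adjusted p = 1.61e-05, 4.10-fold in SP cells). Lhx6, a LIM homeobox gene known from cranial mesenchyme and forebrain interneurons, was also higher. Lhx6 gave 696, 1652, 1083, 2368 and 1838 on the muscle SP arrays, 1006, 416, 825, 746 and 584 on the muscle MP arrays, 186, 198, 236, 258 and 277 on the marrow SP arrays and 189.8, 136, 144, 238 and 247 on the marrow MP arrays. Every muscle array exceeded every marrow array (log2 difference 1.89 ± 0.29, adjusted p = 9.89e-06 in MP and log2 difference 2.62 ± 0.29, adjusted p = 1.26e-07, 6.14-fold, in SP cells). Lhx1, a LIM gene of the head organizer and kidney, was lower in muscle MP cells, 61.9 to 372 against 365 to 592 in marrow MP cells (log2 difference -0.78 ± 0.32, adjusted p = 0.0485). This call was lost when one of the following arrays was left out: muscle SP 4 and 5, or muscle MP 3 and 5, or marrow SP 3, 4 and 5, or marrow MP 1, 2, 3 and 5 (adjusted p 0.0516 to 0.19). The call also ended with no normalization between arrays, with the floor at the 10th percentile, with the floor at the 40th percentile, with a pseudocount of 16, with no filter, with trend and robust moderation, in a fit of these groups alone and without muscle SP arrays 4 and 5 (adjusted p 0.0504 to 0.139). That log2 value was -0.44 without muscle MP 5 and -0.78 without muscle SP arrays 4 and 5. Dlx3, a gene of skin and bone, was lower in muscle MP cells too, 85.5 to 297 against 266 to 453 (log2 difference -0.96 ± 0.35, adjusted p = 0.0287). This call was lost when one of the following arrays was left out: muscle MP 3, 4 and 5, or marrow MP 5 (adjusted p 0.0639 to 0.0877). It did not pass with no normalization between arrays, with the floor at the 10th percentile, with the floor at the 40th percentile, with a pseudocount of 16 and with no filter (adjusted p 0.0555 to 0.141). On the log2 scale the difference was -0.26 with the floor at the 40th percentile.

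Also called between the MP groups were Pitx1, Prrx2, Nkx2-2 and Six2. Pitx1, which specifies the hindlimb, ran at 466 to 1142 in muscle MP and 196 to 415 in marrow MP cells (log2 difference 1.39 ± 0.26, adjusted p = 0.000118, 2.63-fold). Prrx2, a paired-related gene of limb mesenchyme, ran at 263 to 472 and 54.1 to 196 (log2 difference 1.17 ± 0.33, adjusted p = 0.00612). The Prrx2 call was lost with the floor at the 40th percentile (adjusted p 0.0653). The log2 value was 0.39 with the floor at the 40th percentile. Nkx2-2, a gene of neural tube and pancreas, was above the floor on all 5 muscle MP arrays and on none of the marrow MP arrays, at least 2.27-fold (log2 difference 1.18 ± 0.21, adjusted p = 5.87e-05). Six2, taken up with the population differences, was 2.35-fold higher in muscle MP than in marrow MP cells (log2 difference 1.23 ± 0.36, adjusted p = 0.00681) and 2.93-fold lower in muscle SP than in marrow SP cells (log2 difference -1.55 ± 0.36, adjusted p = 0.00131). Prrx1, a gene of fibroblast-like mesenchymal cells in muscle, was near the floor in all groups. Prrx1 gave 143, 119.6, 99.9, 85.5 and 111 on the muscle SP arrays, 166, 177, 152, 115 and 131 on the muscle MP arrays, 193, 147, 132, 233 and 147 on the marrow SP arrays and 239.9, 137, 185, 189 and 255 on the marrow MP arrays. It was lower in muscle SP than in marrow SP cells (log2 difference -0.52 ± 0.20, adjusted p = 0.0402), with no call between the MP groups (log2 difference -0.43 ± 0.20, adjusted p = 0.0841). This call was lost when one of the following arrays was left out: muscle SP 2, 3, 4 and 5, or marrow SP 1 and 4 (adjusted p 0.0583 to 0.119). It was also lost with array weights, in a fit of these groups alone, without the 3 arrays of highest GAPDH ratio, without muscle SP arrays 4 and 5 and without muscle SP arrays 1, 2 and 3 (adjusted p 0.0605 to 0.16). Its size on the log2 scale was -0.79 with no normalization between arrays, -0.46 without muscle SP arrays 4 and 5 and -0.63 without muscle SP arrays 1, 2 and 3. The fibroblast marker list, with a summed signal of 70975 to 120465 in muscle SP and 1929 to 3686 in marrow SP cells, ran opposite to this probe set.

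The second question was what sets SP cells of bone marrow apart from the main population. In marrow SP cells 4 Hox genes, Hoxa5, Hoxa7, Hoxb5 and Hoxb6, were higher, with Pbx3 and Six2. Dlx3, Pbx2 and Hoxc4 were lower. These 6 higher and 3 lower probe sets of 59 compare with 15.4% higher and 14.8% lower among all tested, so the share called, 15.3%, was under the 30.2% of all probe sets called in either direction. The median log2 difference was 0.08 beside 0.02 over all, and the groups did not overlap for 10 of the 59 beside 20.6% of all. Scaling bears on this comparison most. With no normalization between arrays the median log2 difference of all probe sets was 0.31, and 72.2% of calls were higher in place of 50.9%. Over all probe sets 2894 were then higher and 1112 lower, in place of 1583 and 1530, and 18 homeobox probe sets were higher and 2 lower. With median scaling 32.9% of calls were higher, 1061 against 2166 lower, and 6 and 4 homeobox probe sets were called. With the floor at the 10th percentile 10 were higher, and 5 were lower with array weights, without muscle SP array 1 or marrow SP array 3, or without muscle SP arrays 1, 2 and 3.

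Hoxa7 differed most. Its marrow SP values, given above, ran from 260.3 to 1699.7 and its marrow MP values from 46.5 to 135, with no overlap (7.08-fold, log2 difference 2.82 ± 0.33, adjusted p = 9.34e-07). The log2 difference was 1.61 and 3.53 with the floor at the 40th and the 10th percentile. Hoxb5 ran from 270.4 to 1079.7 against 135 to 278, where marrow SP array 4 and marrow MP array 1 crossed (3.85-fold, log2 difference 1.94 ± 0.31, adjusted p = 4.69e-05). Hoxa5 ran from 771 to 1328 against 264 to 405, with all SP arrays above all MP arrays (3.03-fold, log2 difference 1.60 ± 0.24, adjusted p = 1.88e-05). Hoxb6 was 1.52-fold higher in SP cells (log2 difference 0.60 ± 0.18, adjusted p = 0.012), and its lowest SP value, 468, lay above its highest MP value, 430.3. The Hoxb6 call was lost with the GAPDH ratio as a covariate and without the 3 arrays of highest GAPDH ratio (adjusted p 0.0609 to 0.149). That log2 value was 1.05 with no normalization between arrays.

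Other Hox genes known from blood stem cells did not pass. Hoxa9 was 441 to 807 in marrow SP and 390.2 to 492 in marrow MP cells (log2 difference 0.48 ± 0.22, adjusted p = 0.115), Hoxb4 was above the floor on 2 of 5 marrow SP arrays and on none of the MP arrays (log2 difference 0.28 ± 0.29, adjusted p = 0.531), and Hoxa10 on 4 and 0 (log2 difference 0.28 ± 0.25, adjusted p = 0.445). With the floor at the 10th percentile, which lets dim values count, the Hoxa10 log2 difference was 1.83 and passed. With no normalization between arrays the Hoxa9 difference was 0.91 (adjusted p = 0.0068) and passed. Hoxc4 was lower in marrow SP cells, 102 to 227 against 187 to 363 (log2 difference -0.64 ± 0.21, adjusted p = 0.0252), with overlap. The Hoxc4 call was lost when one of the following arrays was left out: marrow SP 1 and 5, or marrow MP 1 and 2 (adjusted p 0.0509 to 0.0861). The same happened with no normalization between arrays, with median scaling, with the floor at the 40th percentile, in a fit of these groups alone and with the GAPDH ratio as a covariate (adjusted p 0.0577 to 0.839). The difference on the log2 scale was -0.07 with no normalization between arrays and -0.15 with the floor at the 40th percentile.

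The Pbx genes moved in opposite directions in marrow SP cells. Pbx3 on probe set 93615_at was 2.39-fold higher (log2 difference 1.26 ± 0.19, adjusted p = 3.06e-05), with no overlap, while probe sets 93616_g_at and 96580_at gave log2 differences of 0.36 ± 0.23 and 0.08 ± 0.23 and were not called (adjusted p = 0.259 and 0.856). With no normalization between arrays 93616_g_at gave 0.76 (adjusted p = 0.0102) and passed. Pbx2 was 2.14-fold lower (log2 difference -1.10 ± 0.19, adjusted p = 0.000158), again with no overlap. Dlx3 was above the floor on 1 marrow SP array and on all 5 marrow MP arrays. Dlx3 gave 366, 103, 53.8, 59.4 and 173 on the muscle SP arrays, 297, 277, 85.8, 85.5 and 136 on the muscle MP arrays, 64.8, 89.5, 213, 93.2 and 101 on the marrow SP arrays and 322, 295, 266, 297 and 453 on the marrow MP arrays. The fold was 2.66 (log2 difference -1.41 ± 0.35, adjusted p = 0.0036), and on the log2 scale -0.33 and -1.64 with the floor at the 40th and the 10th percentile. The Dlx3 call was lost with the floor at the 40th percentile (adjusted p 0.0869). Six2 was 2.18-fold higher in marrow SP cells (log2 difference 1.12 ± 0.36, adjusted p = 0.0202), with overlap at marrow MP array 1. The Six2 call was lost when one of the following arrays was left out: marrow SP 1 and 5, or marrow MP 2 (adjusted p 0.0523 to 0.0751). The call also ended in a fit of these groups alone and with the GAPDH ratio as a covariate (adjusted p 0.0564 to 0.0792). Beside these differences, 7 of 8 T and NK cell genes rose in marrow SP cells, with summed signals of 45734 to 94167 against 3097 to 6253, and 7 of 7 B lineage genes fell, 2672 to 5164 against 12077 to 19603. The part of these cells in the homeobox differences was not tested.

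In muscle, SP cells had higher Hoxb4, Hoxb6, Lhx6, Msx1 and Tgif1 and lower Six2, Pitx3, Prrx2 and Nkx2-2 than MP cells. These 5 higher and 4 lower probe sets of 59 compare with 5.10% higher and 6.64% lower of all tested, and the share called in either direction was 15.3% against 11.7%. The median log2 difference was -0.01 beside 0.03 over all, and the groups did not overlap for 7 of the 59 beside 10.3% of all. The count of higher probe sets was not stable. It was 2 without muscle SP 3, muscle MP 2 or muscle MP 4, and 3 without muscle SP 4, muscle SP 5, muscle MP 1 or muscle MP 5, with no normalization, with the floor at the 10th percentile, with no filter, in a fit of the muscle groups, with the GAPDH covariate, and without either set of muscle SP arrays. The count of lower probe sets was 1 with the floor at the 40th percentile or the filter at the median.

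Hoxb4 had the largest rise. Its muscle SP values ran from 304 to 896 and its muscle MP values from 64.1 to 295, with every SP array above every MP array (2.89-fold, log2 difference 1.53 ± 0.29, adjusted p = 0.00115). The call held in every setting in which the probe set was tested, and the value was 1.07 without muscle SP arrays 4 and 5, which gave the highest signals, and 2.23 without arrays 1, 2 and 3. The Hoxb4 difference was 0.96 with the floor at the 40th percentile. Hoxb6 was 1.55-fold higher (log2 difference 0.63 ± 0.18, adjusted p = 0.0218), also without overlap. Hoxb6 gave 993, 901, 965, 803 and 762 on the muscle SP arrays, 717, 603, 565, 395 and 616 on the muscle MP arrays, 518, 468, 578, 689 and 544 on the marrow SP arrays and 430.3, 410.0, 378, 351 and 276 on the marrow MP arrays. The Hoxb6 call was lost when one of the following arrays was left out: muscle SP 3, or muscle MP 4 (adjusted p 0.0511 to 0.0802). The call also ended with the GAPDH ratio as a covariate and without muscle SP arrays 1, 2 and 3 (adjusted p 0.251 to 0.288). That log2 value was 0.41 with the GAPDH ratio as a covariate and 0.46 without muscle SP arrays 1, 2 and 3.

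Lhx6 was 2.05-fold higher in muscle SP cells (log2 difference 1.03 ± 0.29, adjusted p = 0.021). Its 2 highest arrays were muscle SP 4 and 5, those with high pericyte and smooth muscle markers and low markers of several other cell types. The Lhx6 call was lost when one of the following arrays was left out: muscle SP 4 and 5, or muscle MP 2 and 5 (adjusted p 0.0507 to 0.0718). It did not pass in a fit of these groups alone and without muscle SP arrays 4 and 5 (adjusted p 0.0963 to 0.185). The log2 value was 0.65 without muscle SP arrays 4 and 5 and 1.61 without muscle SP arrays 1, 2 and 3. Msx1 was 2.02-fold higher (log2 difference 1.02 ± 0.32, adjusted p = 0.039), with all SP arrays above all MP arrays and muscle SP arrays 1 and 3 the highest. The Msx1 call was lost when one of the following arrays was left out: muscle SP 1 and 3, or muscle MP 1, 2, 3 and 4 (adjusted p 0.0543 to 0.105). It was also lost with no normalization between arrays, with the floor at the 10th percentile, with no filter, with the GAPDH ratio as a covariate and without muscle SP arrays 1, 2 and 3 (adjusted p 0.0587 to 0.443). Its size on the log2 scale was 0.62 without muscle SP arrays 1, 2 and 3. Between marrow SP and MP cells Msx1 was not called (log2 difference 0.70, adjusted p = 0.105). There it passed as higher in SP cells with no normalization between arrays (1.09, adjusted p = 0.0137). It also passed without the 3 arrays of highest GAPDH ratio (1.10, adjusted p = 0.00607) and without marrow SP array 5 (1.01, adjusted p = 0.00773). Tgif1 was 1.57-fold higher (log2 difference 0.66 ± 0.21, adjusted p = 0.0463), and muscle SP array 1 lay within the MP range. The Tgif1 call was lost when one of the following arrays was left out: muscle SP 2, 3, 4 and 5, or muscle MP 1, 2, 4 and 5, or marrow SP 3, or marrow MP 1, 2 and 3 (adjusted p 0.053 to 0.123). The same happened with no normalization between arrays, with median scaling, with the floor at the 10th percentile, with a pseudocount of 16, with no filter, in a fit of these groups alone and without muscle SP arrays 4 and 5 (adjusted p 0.0503 to 0.271). The difference on the log2 scale was 0.43 without muscle SP arrays 4 and 5 and 1.00 without muscle SP arrays 1, 2 and 3.

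The genes that fell in muscle SP cells were led by Six2, which with its relatives acts with Eya cofactors in muscle precursors and connective tissue. Six2 gave 879, 218, 677, 392 and 622 on the muscle SP arrays, 1343, 1273, 1585, 1904 and 1945 on the muscle MP arrays, 2292, 1267, 1123, 1048 and 1995 on the marrow SP arrays and 1133, 276, 725, 809 and 761 on the marrow MP arrays. Every muscle SP array was under every muscle MP array (3.16-fold, log2 difference -1.66 ± 0.36, adjusted p = 0.00328). Pitx3, a gene of myogenic cells and eye lens, was also lower without overlap. Pitx3 gave 107, 99.8, 139, 121 and 116 on the muscle SP arrays, 294, 349, 245, 321 and 243 on the muscle MP arrays, 132, 80.2, 121, 228 and 285 on the marrow SP arrays and 260.3, 148, 255, 80.5 and 294 on the marrow MP arrays. The fold was 2.46 (log2 difference -1.30 ± 0.28, adjusted p = 0.00337). The Pitx3 call was lost with the floor at the 40th percentile (adjusted p 0.301). On the log2 scale the difference was -0.20 with the floor at the 40th percentile. Prrx2 gave 91.2, 200.2, 196, 50.7 and 60.3 on the muscle SP arrays, 288, 333, 346, 472 and 263 on the muscle MP arrays, 469, 79.2, 172, 111 and 159 on the marrow SP arrays and 196, 176, 58.4, 54.1 and 189.5 on the marrow MP arrays. Prrx2 was 2.47-fold lower in muscle SP cells (log2 difference -1.30 ± 0.33, adjusted p = 0.0122), again without overlap. The Prrx2 call was lost with the floor at the 40th percentile, with the GAPDH ratio as a covariate and without muscle SP arrays 4 and 5 (adjusted p 0.0504 to 0.144). The log2 value was -0.39 with the floor at the 40th percentile and -1.06 without muscle SP arrays 4 and 5. Nkx2-2 gave 230.4, 98.4, 62.3, 128 and 135 on the muscle SP arrays, 251, 207, 158, 267 and 351 on the muscle MP arrays, 74.9, 51.2, 54.6, 108 and 16.2 on the marrow SP arrays and 21.2, 94.4, 72.0, 89.7 and 101 on the marrow MP arrays. Nkx2-2 was 1.77-fold lower (log2 difference -0.83 ± 0.21, adjusted p = 0.0112), and muscle SP array 1 overlapped the MP range. The Nkx2-2 call was lost with no normalization between arrays, with the floor at the 10th percentile, with a pseudocount of 16 and in a fit of these groups alone (adjusted p 0.0689 to 0.126). Hoxa10 was not called (log2 difference -0.52, adjusted p = 0.199), and without muscle SP arrays 4 and 5 it was -0.82 (adjusted p = 0.0488) and passed. Beside these differences, 5 of 8 T and NK cell genes rose in muscle SP cells, with summed signals of 4266 to 52941 against 1515 to 2226, and 6 of 8 satellite cell and myoblast genes and 7 of 9 fibroblast genes fell. The summed signals of the latter lists were 3097 to 4446 against 10422 to 12573 and 70975 to 120465 against 185713 to 283760.3. The part of these cell types in the homeobox differences was not tested.

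The change from MP to SP cells differed between tissues for 9 of 59 probe sets. In 3 of them muscle SP minus MP exceeded marrow SP minus MP, and in 6 it fell short, where 8.69% and 9.85% of all tested probe sets did so. Of the 9, Six2 had the largest term, -2.78 ± 0.51 on the log2 scale (adjusted p = 0.000447). It was lower in SP cells of muscle and higher in SP cells of marrow. Hoxa7 (-2.42 ± 0.47, adjusted p = 0.000775), Hoxb5 (-1.79 ± 0.44, 0.00583), Hoxa5 (-1.58 ± 0.33, 0.00174) and Pbx3 on probe set 93615_at (-1.19 ± 0.27, 0.00343) rose in marrow SP cells and had no call between muscle SP and MP cells. The terms of Pbx3 probe sets 93616_g_at and 96580_at were not called. They passed with no normalization between arrays (-1.17, adjusted p = 0.0106 and -1.12, adjusted p = 0.0205). Prrx2 (-1.51 ± 0.47, 0.0277) fell in muscle SP cells. Hoxb4 (1.25 ± 0.41, 0.0377) rose in muscle SP cells, Pbx2 (1.47 ± 0.28, 0.000611) fell in marrow SP cells, and Hoxb1 (1.27 ± 0.36, 0.0165) had no call within either tissue. The Hoxa7 term was lost with the floor at the 40th percentile (adjusted p 0.0603). The log2 value was -1.21 with the floor at the 40th percentile. The Hoxb5 term was -1.14 with the floor at the 40th percentile. The Hoxb4 term was lost when one of the following arrays was left out: muscle SP 2, 4 and 5, or muscle MP 2, 3, 4 and 5, or marrow SP 3, 4 and 5, or marrow MP 1, 2, 3, 4 and 5 (adjusted p 0.0502 to 0.0766). It did not pass with no normalization between arrays, with the floor at the 10th percentile, with a pseudocount of 16, with no filter, without the 3 arrays of highest GAPDH ratio and without muscle SP arrays 4 and 5 (adjusted p 0.0502 to 0.594). The difference on the log2 scale was 0.63 with the floor at the 10th percentile, 0.63 with a pseudocount of 16, 0.79 without muscle SP arrays 4 and 5 and 1.95 without muscle SP arrays 1, 2 and 3. The Hoxb1 term was lost with no normalization between arrays and without muscle SP arrays 1, 2 and 3 (adjusted p 0.067 to 0.104). That log2 value was 0.90 without muscle SP arrays 1, 2 and 3. The Prrx2 term was lost when one of the following arrays was left out: muscle SP 4, or muscle MP 4, or marrow MP 3 and 4 (adjusted p 0.0504 to 0.0569). It was also lost with the floor at the 40th percentile, with no filter and without muscle SP arrays 4 and 5 (adjusted p 0.0551 to 0.102). On the log2 scale the difference was -0.56 with the floor at the 40th percentile and -1.27 without muscle SP arrays 4 and 5. With no normalization between arrays 30.4% of all such calls were positive in place of 46.9%, and 1 positive and 10 negative homeobox terms were called, while with median scaling 62.2% were positive and 3 and 7 homeobox terms were called.

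**Figure D5:**
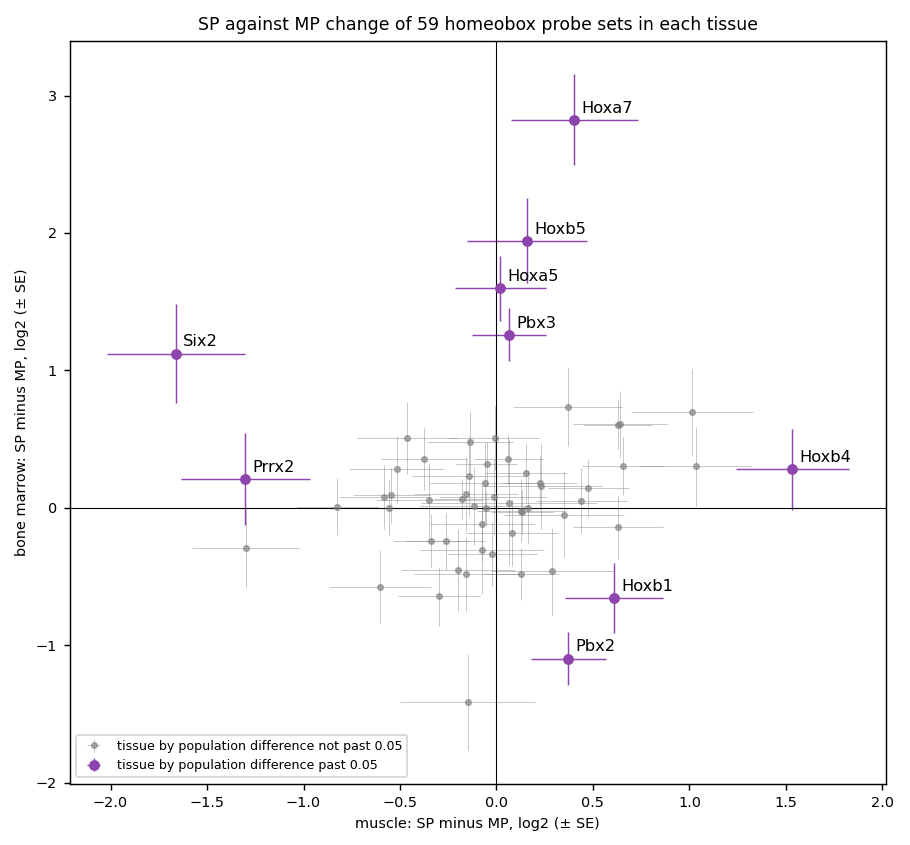
SP minus MP log2 difference (± SE) of the 59 tested homeobox probe sets in muscle (x axis) and in bone marrow (y axis), with the 9 probe sets whose change differed between tissues named. Hoxa7, Hoxb5 and Hoxa5 lie high on the marrow axis near 0 in muscle, Six2 lies at -1.66 in muscle and 1.12 in marrow, and Hoxb4 lies at 1.53 in muscle.

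Hoxb6 was the gene higher in SP than in MP cells in both tissues, by 0.63 ± 0.18 and 0.60 ± 0.18, with a term of 0.03 ± 0.25 between tissues (adjusted p = 0.962), and both calls were lost with the GAPDH ratio as a covariate (adjusted p = 0.251 in muscle and 0.149 in marrow). Of the 59 tested homeobox probe sets, 25 were called in none of the 4 pairwise comparisons, and the same share over all tested probe sets was not counted. The 25 include Hoxa2, Hoxa3, Hoxb3, Hoxb13, Hoxc5, Hoxc8, Msx3, Dlx2, Dlx4, Dlx5, Nkx1-2, Nkx3-2 and the tested Six4 and Hoxa4 probe sets. Six4, a gene active in muscle precursors, ran on probe set 92999_at from 32.3 to 178 and 67.0 to 186 in muscle SP and MP to 26.7 to 271 and 116 to 261 in marrow SP and MP cells. Probe set 93001_at ran at 27.7 to 68.2 in muscle SP and 97.5 to 132 in muscle MP cells, without overlap. With the floor at the 10th percentile it passed as lower in muscle SP than MP cells (log2 -1.22, adjusted p = 0.0466). It then also passed as higher in muscle MP than marrow MP cells (0.97, adjusted p = 0.0425). Probe set 93000_g_at passed as higher in marrow SP than MP cells with no normalization between arrays (1.04, adjusted p = 0.00395).

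Probe sets of a gene did not always rank its groups alike. Of 11 genes with more than 1 probe set, 7 had more than 1 tested. For Hoxa4, probe set 97746_f_at was under the floor on all 20 arrays while 97747_r_at ran from 567 to 1679 with no call. For Hoxb8, 96417_s_at was above the floor on 1 array, and 96418_r_at ran from 380.3 to 2200.3 with no call. The suffixes s, f, g and r mark probes that can cross-hybridise or were chosen under relaxed rules, and 13 of the 87 probe sets carry one, 10 of them tested. Of the 28 untested probe sets, 14 were above the floor on no array, among them those of Nkx2-5, the heart homeobox gene, Hoxb9, Hoxd12, Hoxd13, Msx2, Six6, Nkx2-6, Nkx6-2 and Dlx1, and the other 14 on 1 to 4 arrays. A level under the floor does not show that a gene was silent.

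Genes that act with Hox proteins or control Hox transcription were read from a list, with 16 of its 22 genes on the array tested, 1 probe set a gene. In marrow SP against MP cells 6 of the 16 were higher and 2 lower, 2 and 6 between muscle SP and marrow SP cells, 3 and 5 between muscle MP and marrow MP cells, and 2 and 0 between muscle SP and MP cells. Over all tested probe sets the shares higher and lower were 15.4% and 14.8%, 17.1% and 21.2%, 20.9% and 25.6%, and 5.10% and 6.64% in these comparisons. Meis1, the TALE cofactor of Hoxa9 in blood stem cells, ran at 809 to 3349.9 in marrow SP cells, 131 to 201 in marrow MP, 50.9 to 158 in muscle SP and 63.8 to 177 in muscle MP cells. Its log2 difference was 3.53 for marrow SP minus MP (adjusted p = 2.84e-09) and -3.99 for muscle SP minus marrow SP (adjusted p = 5.17e-11), and all 5 marrow SP arrays lay above the other 15. Mllt3 (3.08), Mllt1 (1.46) and the histone methyltransferase Kmt2a (1.22, adjusted p = 0.00571), which keeps Hox genes on, were also higher in marrow SP cells, and Mllt10 was lower (-0.81). Geminin (Gmnn), which antagonises Hox proteins, was lower in muscle by -2.04 in SP and -2.26 in MP cells, and Psip1, a tether of Kmt2a, by -1.82 in SP cells. Mllt3 was lower in muscle SP than in marrow SP cells (-0.73) and higher in muscle MP than in marrow MP cells (1.95). In muscle SP against MP cells Kdm6a, a demethylase of the mark that Polycomb sets, was higher (1.25, adjusted p = 0.0136), and so was Yy1 (0.80).

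Polycomb proteins hold Hox genes off, and 19 of the 20 Polycomb genes on the array were tested. None was called between muscle SP and MP cells, where 11.7% of all tested probe sets were called. In marrow SP against MP cells 7 were higher, led by Pcgf2 (1.85), Cbx6 (1.79), Scmh1 (1.36) and Phc2 (1.14), and 2 were lower, where 30.2% of all tested probe sets were called in either direction. Between muscle and marrow 2 were higher and 8 lower in SP cells and 7 and 7 in MP cells, beside 38.3% and 46.5% of all called. The catalytic subunit Ezh2 was lower in muscle by -1.81 in SP (adjusted p = 8.02e-09) and -1.63 in MP cells (adjusted p = 2.9e-08), and its partner Eed by -1.44 and -1.37. Rnf2 (-1.30) and Suz12 (-1.10) were lower in muscle SP cells. Cbx6 was higher in muscle MP cells (2.48), and Pcgf5 was lower (-1.22). Bmi1, needed by blood stem cells, was higher in muscle MP than in marrow MP cells (1.08, adjusted p = 0.00533) and not called between marrow SP and MP cells (0.53, adjusted p = 0.204). The 0 calls in muscle came from limma at an adjusted p under 0.05, where 2 of the 19 had an unadjusted p under 0.05, with a median log2 difference of -0.01 over the list beside 0.03 over all.

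Of 12 tested genes among the partners of Six2 and its relatives and the myogenic factors, 4 were lower and 1 higher in muscle SP than in muscle MP cells, beside 6.64% and 5.10% of all tested probe sets. Myf5 (-3.39) and Myog (-2.43), factors of myoblasts, fell together with Twist1 (-1.32) and the cofactor Eya2 (-1.09), as Six2 did. Eya2 rose in marrow SP cells (2.28, adjusted p = 7.39e-07), as Six2 also did, and was lower in muscle SP than in marrow SP cells (-2.48) and higher in muscle MP than in marrow MP cells (0.90, adjusted p = 0.00721). The tissue by population term of Eya2 was -3.38 (adjusted p = 1.42e-06), beside -2.78 for Six2. Tcf15 rose in marrow SP cells (1.14) and was higher in muscle than in marrow by 2.09 in SP and 3.80 in MP cells. Over the list 5 were higher and 2 lower in muscle SP than in marrow SP cells, and 5 were higher and 0 lower in muscle MP than in marrow MP cells, beside 38.3% and 46.5% of all called, among them Myf5 (4.18) and Twist1 (3.71).

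Homeobox genes outside the named families, of which 33 of 47 on the array were tested, gave 5 higher and 2 lower in marrow SP than in marrow MP cells, led by Gbx2 (2.71) and by the B cell factor Pax5 (-1.78). Over all tested probe sets 30.2% were called in that comparison, in either direction. Between muscle and marrow 6 were higher and 5 lower in SP cells and 5 and 8 in MP cells, or 11 and 13 of 33 called, beside 38.3% and 46.5% of all. Shox2, a limb gene, was higher in muscle by 1.96 in SP and 2.57 in MP cells, and Zeb1, a mesenchymal repressor, by 1.95 and 2.13. Satb1, a chromatin organizer of T cells, was lower by -2.23 and -2.50. Gbx2 was lower in muscle SP than in marrow SP cells (-2.78), and Pax5 was lower in muscle MP than in marrow MP cells (-2.48). Hhex, a gene of blood and endothelial precursors, was lower in muscle MP than in marrow MP cells (-1.63, adjusted p = 9.74e-05). In muscle SP against MP cells En1 fell (-1.38), and Satb1 (0.96) and Vax1 (0.87) rose. These 2 higher and 1 lower of 33 stand beside 5.10% and 6.64% of all tested probe sets.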

How the data were processed

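Total RNA of sorted mouse cells was hybridised to Affymetrix arrays, 5 in each of 4 groups. The deposited table gives linear signal intensity per probe set, and on every array the authors' values have the same 2% trimmed mean, 1501. Which software, probe summary or background correction was used is not given in the sources used here, and a floor applied before deposit cannot be told from the values. The 66 control probe sets were left out, the rest quantile normalized because log2 array medians spread over 0.943, and values under the 25th percentile (a signal of 105, log2 6.71) were set to it. Of 12422 probe sets, those above it on 5 or more of 20 arrays, 10310, were fitted together by group with limma 3.58.1 in R 4.3.3, two-sided, with Benjamini-Hochberg adjustment over all 10310 and a threshold of 0.05. The number of arrays limits the precision. A group under the floor on all its arrays gives a bound on the fold.

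The genes were chosen by symbol, and probe sets with several symbols were left out (3 of these families). Of 10833 single-symbol probe sets, 10817 matched RefSeq (GRCm38.p6) by gene identifier. The members and lists were chosen with earlier results of these data known. Values on every array are printed for called genes, up to 8 per comparison and direction by size, and for a fixed set of genes whatever their values, with the rest as ranges or in the heat map. Lists hold up to 4 named genes per comparison by size, and Meis1, Bmi1, Ezh2, Kmt2a and Hhex. The fit was tested on simulated data. Alternatives covered normalization, floor, pseudocount, filter, moderation, array weights, the groups fitted, the replicate block, a GAPDH covariate and arrays left out.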

Additional observations from a re-analysis of the deposited data

Results flagged for a closer look

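Among the named homeobox probe sets, 3 of 108 sets of 5 arrays held an array far from the other 4, and chance alone gives about 5% of such sets. Hoxa9 was 492 on marrow MP array 1 against 390.2 to 412 on the others. Hoxb5 was 278 on the same array against 135 to 156. Pbx3 on probe set 93616_g_at was 1370.0 on muscle MP array 4 against 1886 to 2129.

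The SP minus MP change differed between muscle and marrow, by limma's test of that difference, for 9 probe sets. The log2 terms below 0 were those of Six2 (-2.78), Hoxa7 (-2.42), Hoxb5 (-1.79), Hoxa5 (-1.58), Prrx2 (-1.51) and Pbx3 (-1.19), and those above 0 were those of Pbx2 (1.47), Hoxb1 (1.27) and Hoxb4 (1.25).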

How the results depend on the processing

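Besides the reported setting, 35 settings were run, 20 of them leaving out 1 array each and 2 chosen after seeing the data. Of 80 homeobox calls over the 5 comparisons 56 held in all of those in which the probe set was tested, 24 were lost in at least 1, and 0 reversed. In muscle SP against MP cells 5 probe sets were higher. The count was 3 with no normalization, the floor at the 10th percentile, no filter, only the groups compared, the GAPDH covariate, muscle SP arrays 4 and 5 left out or muscle SP arrays 1, 2 and 3 left out, and 2 to 5 with single arrays left out. The 4 lower became 1 with the floor at the 40th percentile or the filter at the median, and 4 to 5 with single arrays left out. In marrow SP against MP cells the 6 higher became 18 with no normalization and 10 with the floor at the 10th percentile (5 to 8 with single arrays left out), and the 3 lower became 5 with array weights or with muscle SP arrays 1, 2 and 3 left out (2 to 5). With no normalization the count higher over all probe sets went from 1583 to 2894. Between muscle and marrow, single omissions gave 16 to 17 higher and 4 to 7 lower in SP cells and 24 to 25 higher and 4 to 6 lower in MP cells, where 3 were lower with no normalization. The tissue by population count of 9 ran from 7 to 11. All other settings kept these counts within 1.5 times. The labels do not say that a replicate number marks a shared animal or day, and in no comparison did all 5 same-number correlations of deviations exceed 0.1, so the numbers were not taken as pairs. They exceeded it for 4 of 5 between the MP groups, 3 of 5 between the SP groups, 2 of 5 in muscle and 1 of 5 in marrow, and 8 of 20 arrays correlated best with their own number. With the replicate block the counts were 5 and 4 in muscle, 8 and 4 in marrow, 17 and 6 in SP cells, 24 and 6 in MP cells and 10 for the tissue by population term, and 3 calls did not pass, those of Tgif1 in muscle SP against MP cells (adjusted p = 0.0541), Hoxb4 between the MP groups (0.0523) and the Hoxb4 tissue by population term (0.0514). Of the values of named genes that were not called, 14 passed in at least 1 setting. Differences of probe sets near the floor moved with the floor. Signal over background, not depth, limits the dim genes.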

Other observations

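Probe sets named for several Hox genes at once were outside the rule. One shared by Hoxd4 and Hoxd3 ran at 182 to 541 in muscle SP and 250.2 to 561 in muscle MP cells, 25.8 to 361 in marrow SP cells and under the floor on all marrow MP arrays. Its log2 difference of muscle minus marrow was 1.61 in SP (limma adjusted p = 0.000406) and 1.96 in MP cells (adjusted p = 3.4e-05). A second probe set of the same pair gave -0.03 and -0.52 (adjusted p = 0.943 and 0.124). One shared by Hoxb8 and Hoxb7 gave -0.16 and -0.25 (adjusted p = 0.593 and 0.356), where the probe set named for Hoxb7 alone gave 1.93 and 1.78.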
